A study of Chlamydomonas reinhardtii with 21 samples.

Results

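UVM4 is an expression strain of the green alga Chlamydomonas reinhardtii, derived by UV mutagenesis from the parental strain Elow47 and selected for strong expression of transgenes. The transcriptome of UVM4 was compared here with that of Elow47 in 8 liquid cultures, 4 of each strain, of the 21 cultures in the study. All genes whose fragments, normalized to gene length and library size (FPKM), averaged above 0.1 over the 21 cultures were included, which were 15425 of the 17741 deposited genes. UVM4 carries srta-2, a point mutation of SRTA that exchanges a glycine for a serine, whereas Elow47 carries the SRTA wild-type allele. Both strains share the cell wall-deficient background cw15 and the constructs that Elow47 had received, the emetine resistance gene CRY1-1 and ARG7, and both were grown without treatment to mid-logarithmic phase in acetate-containing TAP medium in continuous light. UVM4 is a single mutagenized clone, so that srta-2 and the other UV-induced mutations of the strain cannot be told apart in this comparison. The remaining cultures belonged to UVM11 (srta-1, 4 cultures alongside UVM4 and Elow47 in batch 1 and 3 cultures in batch 2) and to UVM11-C1 and UVM11-C9, into which a functional SRTA gene had been put back (3 cultures each in batch 2).

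SRTA encodes a protein of the Sir2 type, the sirtuins. Sirtuins are deacetylases that consume NAD+ as a co-substrate, and many of them remove acetyl groups from histone tails. Acetylated histones are found at transcribed genes, and their deacetylation accompanies the formation of repressive chromatin. In Chlamydomonas, transgenes are prone to transcriptional silencing, and UVM4 had been isolated because it lacks much of this silencing. The comparison of UVM4 with Elow47 asks which endogenous genes differ in transcript abundance between the mutant and its parent.

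FPKM values summed to 567774 to 587521 in the UVM4 cultures, against 557794 to 604568 in the Elow47 cultures. Read numbers are not part of the table. The relative depth, read from the single-fragment steps of 713 genes of very low expression, was 0.848 to 1.02 in UVM4, against 0.827 to 1.01 in Elow47, where 1 is the geometric mean of the 21 cultures, and for 97.9% of 5174 such values the distance from a whole step was under 0.1. Elow47 culture 3 stood apart from the other 7 cultures. Among 13509 genes with a mean above 1 FPKM, 150 differed in it more than 2-fold from the mean of the other Elow47 cultures, of which 123 were higher. In the other 7 cultures, 5 to 33 genes did so. The main counts were therefore repeated without Elow47 culture 3, and are given where they differed. The gene models are known only by their identifiers in most cases, and functions are named only where the study annotated the gene.

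SRTA (Cre10.g462200, chromosome 10 from 5935593 to 5941064 in version 5 of the genome) did not differ between the strains beyond the spread of the cultures. It had 3.48, 3.51, 3.1 and 3.89 FPKM in the UVM4 cultures, against 2.65, 3.99, 3.5 and 3.67 FPKM in the Elow47 cultures. The ranges overlapped. The log2 fold change of UVM4 over Elow47 was 0.03 ± 0.10 (SE, 95% confidence interval -0.18 to 0.23), with an adjusted p of 0.907 in limma, and the two-sided exact permutation test of the 8 values gave p = 0.971, where 0.0286 is the smallest p possible with 4 against 4 cultures. Its sign turned when UVM4 culture 4 was left out (-0.02) and when Elow47 culture 1 was left out (-0.09). As srta-2 is a point mutation, the transcript level does not check the genotype.

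The other histone deacetylase genes did not pass the test either. Of the 17 genes in the family, 0 were differentially expressed by any threshold used here, and 0 reached an adjusted p below 0.05 in limma. Over all tested genes, 1.12% were differentially expressed and 8.39% had an adjusted p below 0.05, so that few of 17 genes would be called. HDA1 and HDA2 had an unadjusted p of 0.0392 and 0.0206 in limma. The median log2 fold change of the 17 genes was 0.00, and the median of all tested genes was also 0.00. SRTB and SRTC, the other sirtuins, had log2 fold changes of 0.00 ± 0.21 and -0.04 ± 0.06 (SE). SRTB averaged 0.875 ± 0.163 FPKM in UVM4 and 0.876 ± 0.188 FPKM in Elow47 (SD, n = 4 each). The most positive value belonged to HDA13 with 0.20 ± 0.18 and the most negative to HDA1 with -0.21 ± 0.09 (SE), and HDA1 averaged 5.28 ± 0.19 FPKM in UVM4 and 6.14 ± 0.77 FPKM in Elow47 (SD, n = 4 each).

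**Figure D1:**
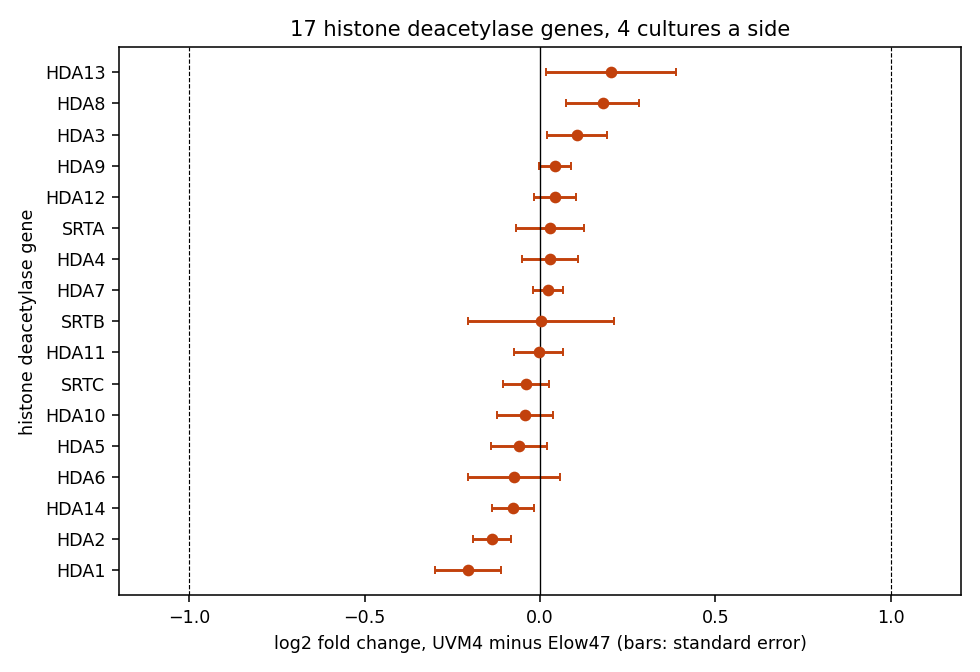
Log2 fold change of UVM4 over Elow47 (x axis) for the 17 histone deacetylase genes (y axis), with the standard error of the limma model as bars and the thresholds of -1 and 1 as dashed lines. The 17 genes lie between -0.21 for HDA1 and 0.20 for HDA13.

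Across the transcriptome, UVM4 differed from Elow47 mainly by genes that were more abundant in UVM4. Genes were called differentially expressed (DEGs) where log2(FPKM + 0.1) differed by more than 1 and the Benjamini-Hochberg adjusted p was below 0.01. Of the 15425 genes tested, 152 were DEGs higher in UVM4 (0.985%) and 20 were DEGs lower in UVM4 (0.13%), together 1.12%. The 4 UVM4 values did not overlap with the 4 Elow47 values in 149 of the 152 genes and in all of the 20 genes, whereas 7.44% of the tested genes were separated in this manner with UVM4 higher and 6.67% with UVM4 lower. Without Elow47 culture 3, 158 genes were higher and 22 lower. The counts fell most in 3 other settings, in which all genes called were among the 172. Some further settings gave slightly smaller counts, and in several of these not all genes called were among the 172. With a pseudocount of 1 there were 49 higher and 8 lower DEGs, with a filter at a mean of 1 FPKM 72 and 14, and with a test against the log2 threshold of 1 itself (limma treat) 73 and 5.

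The surplus of higher genes lay among the large changes. An adjusted p below 0.01 was reached by 4.08% of the tested genes regardless of fold. Up to an absolute log2 fold change of 0.5, 118 of them were higher and 139 lower in UVM4. Between 0.5 and 1 there were 114 higher and 87 lower genes. Between 1 and 2 the numbers were 84 and 18, and above 2 they were 68 and 2. Without Elow47 culture 3 the numbers in these 4 ranges were 93 and 121, 121 and 75, 89 and 19, and 69 and 3. The higher DEGs had a median log2 fold change of 1.85 and the lower DEGs of -1.42, while the median absolute change of all tested genes was 0.09.

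**Figure D2:**
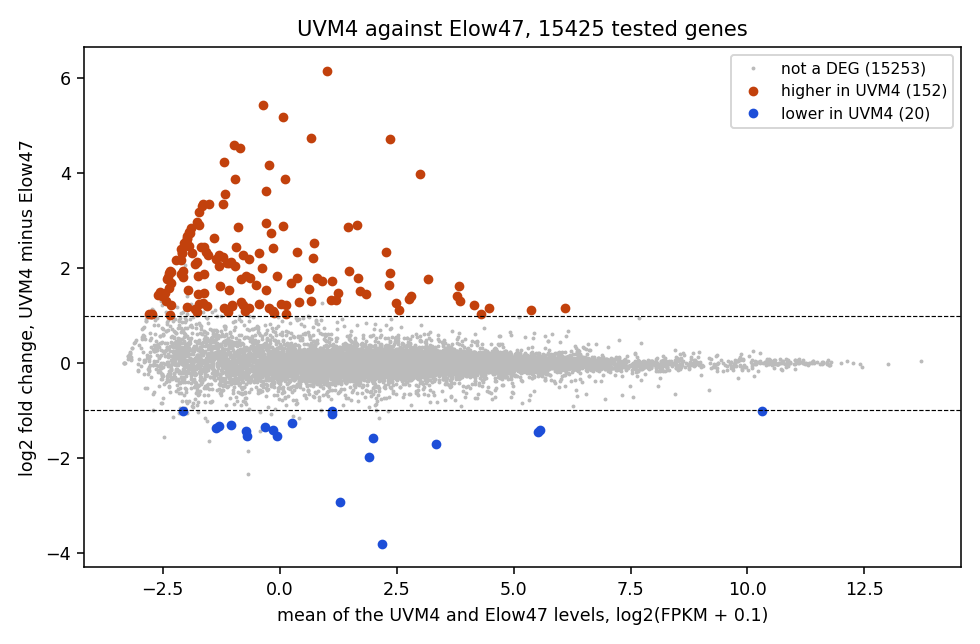
Log2 fold change of UVM4 over Elow47 (y axis) against the mean level of both strains in log2(FPKM + 0.1) (x axis) for 15425 tested genes, with the 152 higher DEGs in orange, the 20 lower DEGs in blue and thresholds dashed. Most higher DEGs lie at low levels and reach up to 6.15, while the lower DEGs reach -3.81.

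Most of the higher DEGs were barely transcribed in Elow47. The median of their mean levels was 0.931 FPKM in UVM4 and 0.129 FPKM in Elow47, compared with 5.51 and 5.52 FPKM for all tested genes. In Elow47, 67 of the 152 genes (44.1%) averaged below 0.1 FPKM, against 1.96% of all tested genes, and 126 averaged below 1 FPKM. Without Elow47 culture 3, 66 of 158 (41.8%) averaged below 0.1 FPKM. In UVM4, 74 of the 152 reached 1 FPKM and 15 reached 10 FPKM. These shares follow in part from the filter and the scale: a gene below 0.1 FPKM in Elow47 was tested only if other cultures lifted its mean, and could not have fallen 2-fold on this scale. For 4 of the 152 genes, the 17 cultures other than UVM4 averaged 0.1 FPKM or less. The filter itself fell between Cre01.g035050, which was just inside with a mean over all cultures of 0.10058 FPKM, and Cre06.g278092, just outside with 0.09947 FPKM. The 20 lower DEGs had a median level of 0.743 FPKM in UVM4 and 2.35 FPKM in Elow47.

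Some genes had values above 0 in every UVM4 culture and in no Elow47 culture. Among all 17741 deposited genes, 51 were above 0 in all 4 UVM4 cultures and listed at 0 in all 4 Elow47 cultures, while 2 showed the opposite, Cre06.g285926 and Cre09.g387097. With a minimum of 0.001 FPKM in each culture, chosen after the values were seen, the counts were 50 and 2, since Cre06.g278292 had values far below a single fragment in UVM4 cultures 2 and 4. Leaving out Elow47 culture 3 gave 60 and 4 genes, or 59 and 3 with this minimum. The pattern was not particular to UVM4. Of the genes at 0 in all Elow47 cultures, 67 were above 0 in all UVM11 cultures of batch 1. In batch 2 the numbers were 101 for UVM11, 53 for UVM11-C1 and 123 for UVM11-C9. Of the 51 genes, 36 were above 0 in all UVM11 cultures of batch 1. Each Elow47 culture had 1831 to 1896 genes at 0, and each UVM4 culture 1629 to 1686. The 51 genes were weakly expressed, with a median of 0.105 FPKM in UVM4 and a maximum of 1.81 FPKM, and 20 of them were DEGs. The maximum belonged to Cre11.g474650, which had 1.70, 2.27, 1.54 and 1.71 FPKM in the UVM4 cultures and 0 in each Elow47 culture (adjusted p = 1.01e-13). Whether all cells of a culture or only some of them carried such a transcript cannot be told apart in bulk RNA. Cre09.g387097 had 0 in each UVM4 culture, against 0.381, 0.227, 0.361 and 0.502 FPKM in the Elow47 cultures.

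On the scale of log2(FPKM + 0.1), the 12 higher DEGs of largest fold change with separated groups were led by Cre02.g141166 on chromosome 2 (8196226 to 8200511). It had 17.7, 15.9, 17 and 16.6 FPKM in UVM4 and 0.113, 0.115, 0.131 and 0.200 FPKM in Elow47, a log2 fold change of 6.15 ± 0.09 (SE, adjusted p = 2.97e-21). The UVM4 cultures were within a narrow range, all far above the highest Elow47 culture. Cre16.g681200 had 4.55, 4.90, 4.94 and 5.48 FPKM in UVM4, against 0.0342, 0, 0 and 0.0419 FPKM in Elow47 (log2 fold change 5.43 ± 0.11, adjusted p = 1.13e-18). Cre02.g095044 had 6.23, 6.74, 5.97 and 5.73 FPKM in UVM4 and 0.0206, 0.142, 0.0959 and 0.0506 FPKM in Elow47 (5.19 ± 0.13, adjusted p = 3.56e-17). In both genes the Elow47 values were close to the limit of single fragments. For genes this near 0 in Elow47 the fold change depends on the pseudocount, and so does the order of these genes. Cre09.g399812 had 7.77, 8.54, 7.89 and 8.40 FPKM in UVM4, against 0.187, 0.202, 0.255 and 0.189 FPKM in Elow47, a log2 fold change of 4.75 ± 0.09.

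Cre08.g365900 (chromosome 8 from 1710379 to 1712537) was among the most abundant of these genes, with 24.5, 27.6, 23.5 and 23.7 FPKM in UVM4. In Elow47 it had 0.760, 1.78, 0.611 and 0.609 FPKM, and culture 2 was more than 2-fold above the others. Its log2 fold change was 4.71 ± 0.27 (SE). On the same chromosome, a pair of adjacent genes moved in opposite directions. Cre08.g368600 (2077943 to 2081785) had 2.33, 2.84, 2.61 and 2.46 FPKM in UVM4, against 0, 0, 0.0479 and 0.0169 FPKM in Elow47 (4.53 ± 0.15). Cre08.g368650 (2089806 to 2091757) had 0.589, 0.953, 0.891 and 0.742 FPKM in UVM4, against 6.16, 6.27, 7.28 and 6.77 FPKM in Elow47 (-2.93 ± 0.14, adjusted p = 3.27e-12). The groups were separated in both genes.

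Cre02.g100700 had 2.38, 2.53, 2.09 and 2.61 FPKM in UVM4 and a single value above 0 in Elow47, 0.0142 FPKM in culture 2. Cre13.g606300, annotated by the study as a 2'-5' oligoadenylate synthase, rose to 3.30, 3.71, 3.05 and 3.84 FPKM in UVM4, against 0.139, 0.0455, 0.184 and 0.0583 FPKM in Elow47 (4.16 ± 0.27, adjusted p = 3.34e-10). In mammals, enzymes of this name make short 2'-5'-linked oligoadenylates in response to double-stranded RNA. Cre03.g198250 was the most abundant gene among the 12, with 35.5, 28.9, 32.1 and 30.2 FPKM in UVM4 and 2.02, 2.06, 1.62 and 1.93 FPKM in Elow47 (3.99 ± 0.14). Cre04.g217974 varied most among the UVM4 cultures of the 12 genes relative to its mean, with 5.02, 3.98, 2.86 and 3.53 FPKM, against 0.150, 0.115, 0.464 and 0.0612 FPKM in Elow47. Cre12.g532151 had 1.93, 1.91, 2.03 and 1.66 FPKM in UVM4 and 0.0388, 0.0382, 0.0386 and 0.0272 FPKM in Elow47 (3.87 ± 0.10).

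**Figure D3:**
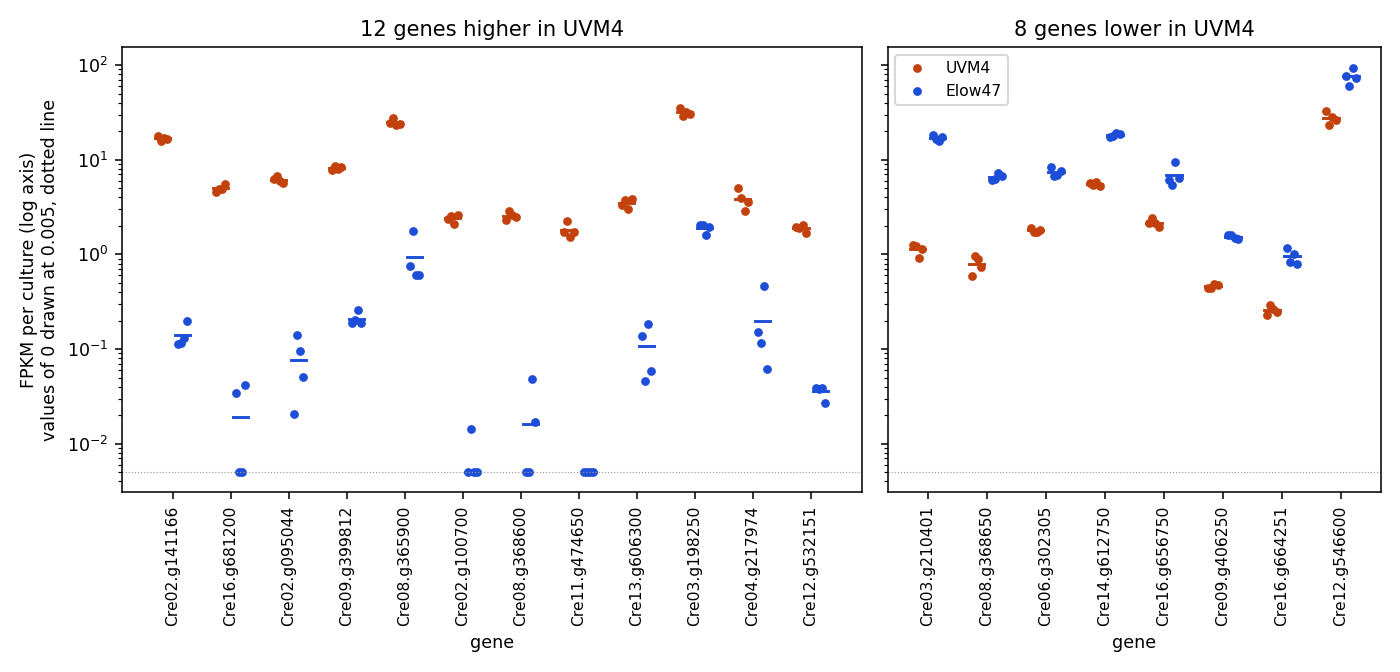
FPKM in each culture (log axis, with values of 0 drawn on the dotted line at 0.005) for the 12 higher and 8 lower DEGs of largest fold change whose groups do not overlap. Points are cultures and bars are means, UVM4 in orange and Elow47 in blue, and Cre02.g141166 at the left has a mean of 16.8 FPKM in UVM4 and 0.140 FPKM in Elow47.

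By difference in mean FPKM, the 6 leading higher DEGs included Cre03.g198250 and Cre08.g365900, described above with log2 fold changes of 3.99 and 4.71, and 4 genes of smaller fold. Cre03.g176150 (chromosome 3 from 4485713 to 4487523) came first, with 102, 99.9, 95.3 and 115 FPKM in UVM4 and 43.8, 48.0, 43.6 and 47.7 FPKM in Elow47, a log2 fold change of 1.17 ± 0.08 (adjusted p = 3.3e-10). Cre17.g734757 averaged 61.1 ± 1.2 FPKM in UVM4 and 28.2 ± 2.3 FPKM in Elow47 (SD, n = 4 each), and Cre06.g278270 averaged 33.3 ± 3.2 and 14.8 ± 1.5 FPKM in UVM4 and Elow47. Cre10.g425850 had 26.5, 22.9, 25.8 and 24.1 FPKM in UVM4, against 6.42, 8.62, 8.35 and 8.68 FPKM in Elow47 (1.63 ± 0.15). None of these genes overlapped between the strains. When the change was tested against the threshold itself, the 4 genes of smaller fold were not called.

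Among the lower DEGs, Cre03.g210401 on chromosome 3 (9038646 to 9042232) stood first. It fell to 1.25, 1.22, 0.914 and 1.13 FPKM in UVM4, against 18.1, 16.7, 15.6 and 17.5 FPKM in Elow47 (log2 fold change -3.81 ± 0.16, adjusted p = 3.31e-13). Cre06.g302305 had 1.92, 1.73, 1.71 and 1.82 FPKM in UVM4, against 8.35, 6.69, 6.84 and 7.57 FPKM in Elow47 (-1.98 ± 0.08). Cre14.g612750 averaged 5.53 ± 0.26 FPKM in UVM4 and 18.2 ± 0.9 FPKM in Elow47 (SD, n = 4 each). All 3 genes were separated between the strains by wide margins. Cre16.g656750 had 2.14, 2.41, 2.16 and 1.97 FPKM in UVM4, against 6.11, 5.36, 9.50 and 6.47 FPKM in Elow47, where the highest value came from culture 3. Cre09.g406250 and Cre16.g664251 averaged 0.460 and 0.260 FPKM in UVM4, and 1.53 and 0.951 FPKM in Elow47.

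The most abundant lower DEG was Cre12.g546550 (chromosome 12 from 8671306 to 8675189). It had 1015, 732, 949 and 881 FPKM in UVM4, against 2109, 1726, 1547 and 1821 FPKM in Elow47. Its log2 fold change of -1.01 ± 0.16 (adjusted p = 1.28e-04) was just past the threshold, and the gene was no DEG without UVM4 culture 2 (-0.92) or without Elow47 culture 1 (-0.93). The adjacent Cre12.g546600 (8666912 to 8670847) fell as well, to 32.8, 23.1, 27.9 and 26.2 FPKM in UVM4, against 76.3, 60.5, 93.9 and 73.0 FPKM in Elow47 (-1.46 ± 0.16). They were the only 2 of the 20 lower DEGs that adjoined another lower DEG. Cre07.g336800 had 33.0, 23.9, 28.9 and 30.7 FPKM in UVM4, against 79.2, 69.6, 79.5 and 82.6 FPKM in Elow47 (-1.42 ± 0.10).

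A part of the higher DEGs lay side by side in the genome. Of the 148 higher DEGs placed on a chromosome, 30 (20.3%) had another higher DEG as an immediate neighbour in the order of annotated genes, whereas 213 of all 15298 tested and placed genes (1.39%) had one. This difference between shares was not tested. Without Elow47 culture 3, it was 32 of 154. The 17 adjacent pairs had 0 overlapping gene spans. With steps of at most 5 gene positions, 48 of the 148 genes (32.4%) fell into 19 runs of 2 to 5 higher DEGs, and 49 of 154 into 20 runs without Elow47 culture 3. The share of all tested genes within such steps of a higher DEG was not computed, so the 32.4% has no reference here. The share of tested genes that were higher DEGs was largest on chromosome 4 with 13 of 470 (2.77%), on chromosome 2 with 20 of 1279 (1.56%) and on chromosome 8 with 9 of 598 (1.51%), and smallest on chromosome 6 with 6 of 1381 (0.434%).

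The longest run comprised 5 higher DEGs within 7 genes on chromosome 16 (5421362 to 5452212). Cre16.g681251, Cre16.g681250, Cre16.g681200, Cre16.g681100 and Cre16.g681000 averaged 5.78, 9.50, 4.96, 0.512 and 0.515 FPKM in UVM4, and 1.62, 2.67, 0.0190, 0.00271 and 0.0226 FPKM in Elow47. The first and second of these genes were already transcribed in Elow47, where culture 3 was highest with 2.36 and 4.71 FPKM. The other 3 were at or near 0 in Elow47. Inside the run, Cre16.g681050 rose less, with 0.108, 0.114, 0.0949 and 0.0527 FPKM in UVM4 and 0 in each Elow47 culture, while Cre16.g681051 averaged 0.0171 FPKM in UVM4 and 0.0673 FPKM in Elow47 (adjusted p = 0.193). The genes on either side of the run did not pass the test. Cre16.g681353 averaged 2.27 and 2.11 FPKM in UVM4 and Elow47, and Cre16.g680950 averaged 3.69 and 3.49 FPKM.

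A run on chromosome 3 (6810096 to 6878967) held 4 higher DEGs. Cre03.g198250, described above, was flanked within it by Cre03.g198224 and Cre03.g198236 with 0.288 and 0.427 FPKM in UVM4, and 0 and 0.00525 FPKM in Elow47, and by Cre03.g198500 with 0.631 FPKM in UVM4 and 0 in Elow47. Of the 4 genes between them, 3 were not tested because of their low level. On chromosome 4 (797327 to 815284), Cre04.g217969, Cre04.g217971, Cre04.g217973 and Cre04.g217974 averaged 0.927, 1.33, 2.68 and 3.85 FPKM in UVM4, and 0, 0.1, 0.499 and 0.197 FPKM in Elow47. Cre04.g217970, between them, had 0.0827 FPKM in UVM4 and 0.0401 FPKM in Elow47 and was no DEG (adjusted p = 0.388). On chromosome 2 (8196226 to 8216621), Cre02.g141166 was followed directly by Cre02.g141186 and Cre02.g141206, with 0.106 and 1.02 FPKM in UVM4, and 0 and 0.0092 FPKM in Elow47. Within a run the genes thus differed widely in their level in UVM4.

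**Figure D4:**
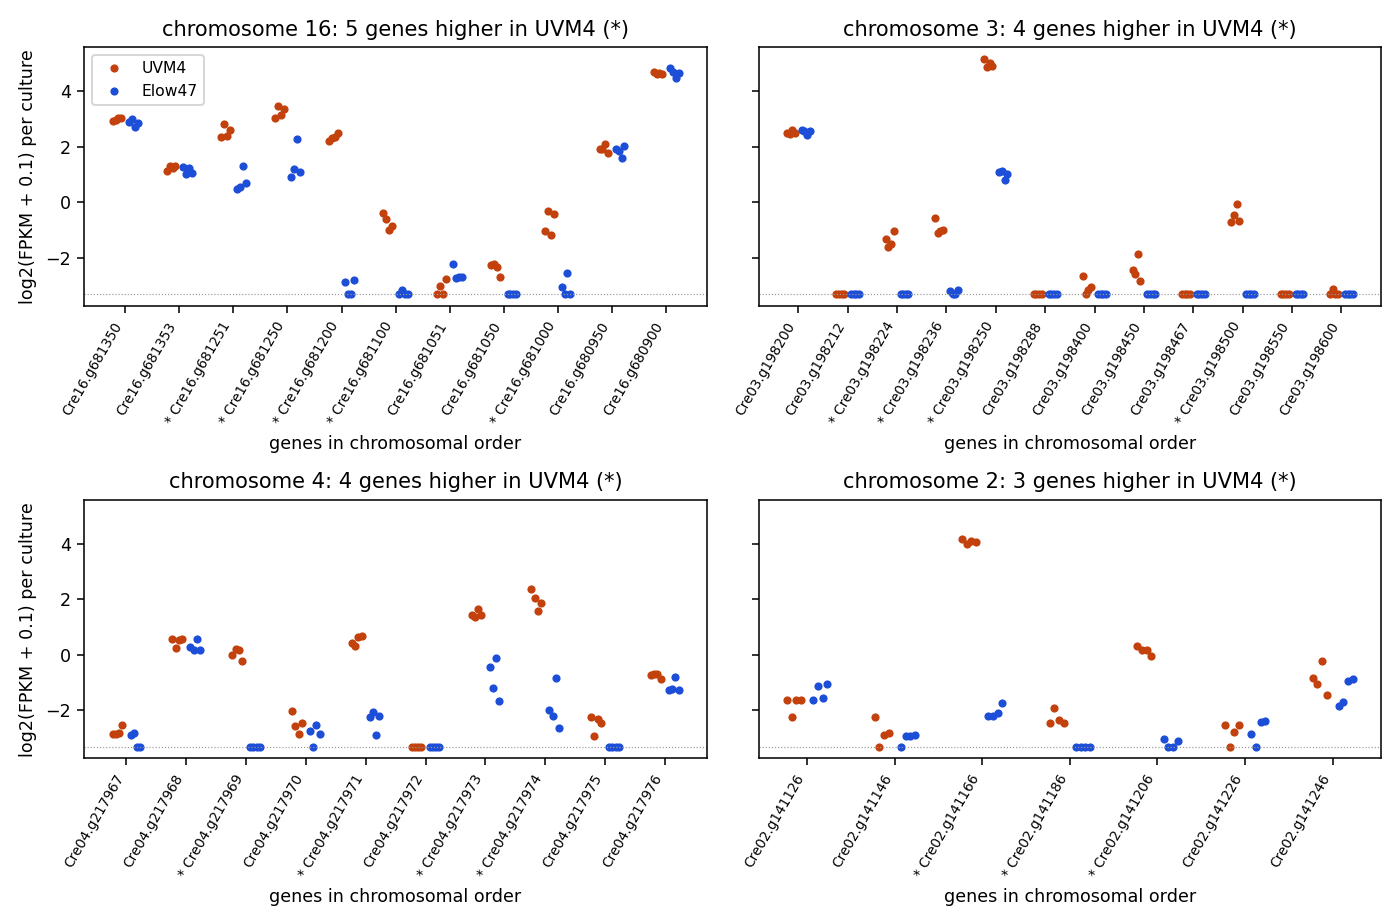
Level of each gene in log2(FPKM + 0.1) per culture (y axis) in chromosomal order (x axis) for runs of higher DEGs on chromosomes 16, 3, 4 and 2, with 2 genes on either side. Points are the 4 UVM4 (orange) and 4 Elow47 (blue) cultures, asterisks mark the 5, 4, 4 and 3 higher DEGs, and the dotted line is a value of 0.

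Few genes of the mapped interval that contains SRTA were DEGs. The chromosome 10 interval to which the study had mapped the mutation of UVM11, not that of UVM4, lists 313 gene identifiers, of which 287 were tested. Of these, 2 were higher DEGs (0.697%, near the 0.985% of all tested genes) and 0 lower, or 3 and 0 without Elow47 culture 3. An adjusted p below 0.05 was reached by 9.06% of the 287 genes and by 8.39% of all tested genes. The median log2 fold change of the 287 genes was 0.01, compared with 0.00 over all tested genes. Both DEGs are named here because they are members of this list. Cre10.g451500, annotated as a chitinase-like hydrolase, had 1.15, 1.62, 1.55 and 1.77 FPKM in UVM4, against 0.376, 0.235, 0.198 and 0.126 FPKM in Elow47 (2.32 ± 0.20, adjusted p = 3.42e-08). Chitinases cleave chitin, a polymer of N-acetylglucosamine. Cre10.g450800, without annotation, had 0.738, 0.432, 0.569 and 0.824 FPKM in UVM4, against 0, 0.144, 0.0291 and 0.0307 FPKM in Elow47.

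Within this interval, the 3 chromatin-related genes besides SRTA from which the study had made mapping markers did not pass the test. Other genes of the interval with chromatin annotations were not examined as a list. Cre10.g461750, annotated as a cytosine-specific DNA methylase, an enzyme type that methylates DNA, averaged 6.75 ± 0.43 FPKM in UVM4 and 6.15 ± 0.72 FPKM in Elow47 (SD, n = 4 each, adjusted p = 0.339). The acetyltransferases of the GNAT family, Cre10.g464264 and Cre10.g464750, averaged 3.97 and 5.26 FPKM in UVM4, and 4.04 and 5.19 FPKM in Elow47. Of the genes annotated for mobile elements or viral proteins, Cre10.g465050, with a DDE endonuclease domain as found in transposases, had 3.52 ± 0.06 FPKM in UVM4 and 3.27 ± 0.23 FPKM in Elow47. Cre10.g462550, annotated as a retrotransposon, was listed at 0 in all 8 cultures.

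The study names 242 genes with its list of sequence differences between UVM4 and Elow47, of which 228 were tested. Non-coding differences were included, and the difference was not required to lie inside the gene. Among them 3 were higher DEGs (1.32%, against 0.985% of all tested genes) and 0 lower, with a median log2 fold change of -0.02. Without Elow47 culture 3 there were 6 higher and 0 lower, of 158 and 22 DEGs in all. Cre17.g731571 had 10.5, 11.1, 11.2 and 12.4 FPKM in UVM4, against 3.80, 4.02, 4.19 and 4.84 FPKM in Elow47 (1.41 ± 0.07, adjusted p = 5.89e-12). Cre25.g756347 on an unplaced scaffold had 0.378, 0.201, 0.490 and 0.371 FPKM in UVM4 and 0 in each Elow47 culture. The strains overlapped in the third gene, Cre12.g551600, with 1.5, 3, 2.19 and 2.5 FPKM in UVM4 and 0.472, 0.439, 2.18 and 0.469 FPKM in Elow47, where culture 3 stood apart. Its log2 fold change was 1.55 ± 0.34 (adjusted p = 0.00543) with all cultures and 2.06 without Elow47 culture 3, but the adjusted p exceeded 0.01 when any of Elow47 cultures 1, 2 and 4 or UVM4 cultures 2, 3 and 4 was left out. Cre12.g551650, directly beside it, averaged 1.97 FPKM in UVM4 and 0.297 FPKM in Elow47. Of the 43 genes in which the difference changes the protein, 41 were tested and 1 was a DEG, Cre25.g756347, or 2 without Elow47 culture 3. The study marks 8 transposon insertions in only one of the strains. Of 34 tested genes within 10 kb of them 0 were DEGs, where the share of all tested genes (1.12%) would give less than 1.

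The study had selected 18 genes on these and other cultures as higher in both mutants and lower after complementation. All 18 were higher DEGs here, which is not independent evidence since UVM4 and Elow47 served in their selection. Their median log2 fold change was 2.16. Besides Cre13.g606300, 4 carry an annotation. Cre17.g729101, a pherophorin, rose to 1.32, 0.969, 1.07 and 1.09 FPKM in UVM4, against 0.112, 0.161, 0.109 and 0.115 FPKM in Elow47 (2.43 ± 0.15). Pherophorins are glycoproteins of the extracellular matrix, known best from the relative Volvox. Cre14.g630000, with a SnoaL-like domain, had 1.85, 1.84, 2.23 and 2.06 FPKM in UVM4, against 0.609, 0.419, 0.613 and 0.597 FPKM in Elow47. Cre05.g245500, a flagellar associated protein with ankyrin repeats, averaged 0.778 ± 0.103 FPKM in UVM4 and 0.264 ± 0.061 FPKM in Elow47 (SD, n = 4 each). Cre01.g041752, a protein kinase, averaged 0.373 ± 0.130 FPKM in UVM4 and 0.0935 ± 0.0263 FPKM in Elow47. None of these levels reached 10 FPKM in a UVM4 culture.

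The remaining 13 genes of this selection have no annotation. Cre12.g541550 was the most abundant, with 5.99, 5.19, 5.20 and 4.77 FPKM in UVM4 and 1.22, 1.29, 1.05 and 1.77 FPKM in Elow47 (1.93 ± 0.24). Cre01.g042700 averaged 1.26 ± 0.32 FPKM in UVM4 and 0.194 ± 0.051 FPKM in Elow47, and Cre14.g613100 averaged 1.03 ± 0.14 and 0.382 ± 0.071 FPKM in UVM4 and Elow47 (SD, n = 4 each). Cre03.g201417 averaged 0.916 ± 0.058 FPKM in UVM4 and 0.133 ± 0.029 FPKM in Elow47. Cre02.g095039, Cre17.g742800 and Cre16.g667550 were at 0 in every Elow47 culture and averaged 0.545, 0.580 and 0.266 FPKM in UVM4. Cre09.g386742 had 0.508, 0.515, 0.494 and 0.519 FPKM in UVM4, against 0.0217, 0.0249, 0 and 0 FPKM in Elow47. The lowest level belonged to Cre07.g326626, with 0.0650, 0.0230, 0.153 and 0.234 FPKM in UVM4 and 0 in Elow47. Its call (adjusted p = 0.00332) was lost without UVM4 culture 3 (adjusted p = 0.0171) or culture 4 (0.0137). Cre11.g467713 averaged 0.355 ± 0.160 FPKM in UVM4 and 0.0242 ± 0.0280 FPKM in Elow47, and its adjusted p of 0.00261 exceeded 0.01 without UVM4 culture 1, 2 or 3 or without Elow47 culture 1, with 0.0109 to 0.0138.

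Replicate cultures varied more for the higher DEGs than for all tested genes, although the call itself favours genes of small spread within the strains. The median standard deviation of log2(FPKM + 0.1) for the 152 genes was 0.193 in UVM4 and 0.242 in Elow47, against 0.0864 and 0.121 for all tested genes, which are more abundant. The widest spread among UVM4 cultures, noted after the values were seen, was in Cre03.g204850 with 0.733, 0.864, 0.0479 and 0.439 FPKM, against 0.0802, 0, 0.0466 and 0.0491 FPKM in Elow47. The low UVM4 culture 3 lay within the Elow47 range. Overlap was found in one further gene, Cre09.g389838, with 1.39, 1.51, 1.28 and 1.38 FPKM in UVM4 and 0.389, 0.476, 1.41 and 0.540 FPKM in Elow47, again through Elow47 culture 3.

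The levels of the UVM4 DEGs in the other strains are given as a description, since UVM11 of batch 1 is compared with the same Elow47 cultures. For the 152 higher DEGs, the median of the mean levels was 0.931 FPKM in UVM4, 0.823 FPKM in UVM11 of batch 1 and 0.129 FPKM in Elow47. In batch 2 it was 0.849 FPKM in UVM11-C1, 0.914 FPKM in UVM11-C9 and 1.25 FPKM in UVM11. For the 20 lower DEGs, the medians were 0.743 FPKM in UVM4, 1.39 FPKM in UVM11 and 2.35 FPKM in Elow47. Of the 152 higher DEGs, 109 (71.7%) were also higher DEGs of UVM11 over Elow47, against 1.26% of all tested genes, and 1 was lower. Elow47, which served to choose the genes, had the lowest mean of the 6 groups in 115 of the 152. UVM4 had the highest mean in 34. Of the 20 lower DEGs, 3 were also lower DEGs of UVM11, against 0.143% of all tested genes. Several leading genes differed in level between the mutants. Cre16.g681200 averaged 4.96 ± 0.38 FPKM in UVM4, 26.8 ± 0.9 FPKM in UVM11 and 0.0190 FPKM in Elow47, and Cre02.g100700 averaged 2.4 ± 0.23 FPKM in UVM4, 0.354 ± 0.092 FPKM in UVM11 and 0.00355 FPKM in Elow47 (SD, n = 4 each).

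**Figure D5:**
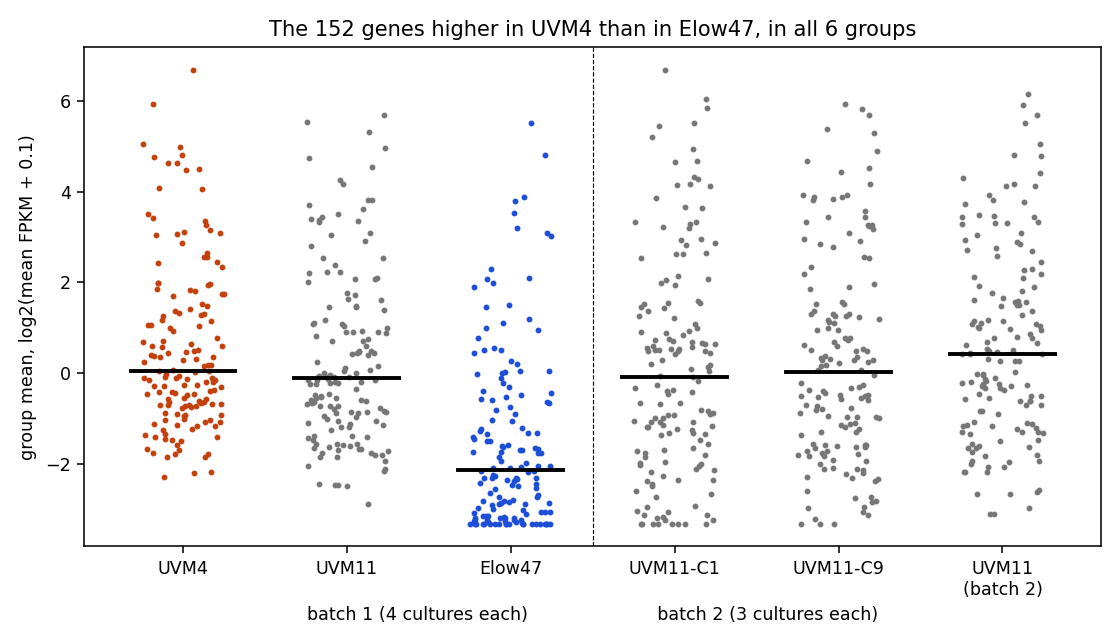
Mean level of each of the 152 higher DEGs in log2(mean FPKM + 0.1) (y axis) in the 6 groups of strain and batch (x axis), with the median as a black bar. Points are genes, jittered sideways, and the Elow47 group, which served to choose the genes, is lowest with a median of 0.129 FPKM against 0.931 FPKM in UVM4.

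Some genes distinguished UVM4 from both other strains of batch 1. UVM4 minus UVM11 gave 0.389% higher and 0.467% lower DEGs among all tested genes and shares the UVM4 cultures with the comparison above. Cre03.g176150 averaged 103 ± 9 FPKM in UVM4, 46.6 ± 2.7 FPKM in UVM11 and 45.8 ± 2.4 FPKM in Elow47. Cre10.g425850 averaged 24.8 ± 1.7 FPKM in UVM4, 5.13 ± 0.69 FPKM in UVM11 and 8.02 ± 1.08 FPKM in Elow47. Cre06.g302305 was lower in UVM4, with 1.79 ± 0.10 FPKM, than in UVM11 with 11 ± 0.7 FPKM and Elow47 with 7.37 ± 0.76 FPKM (SD, n = 4 each). Genes that were a DEG of UVM4 against both strains, without a DEG between UVM11 and Elow47, numbered 19 on the higher side and 8 on the lower side, or 19 and 9 without Elow47 culture 3. UVM11 minus Elow47 gave 1.26% higher and 0.143% lower DEGs among all tested genes. Among these 19 genes the largest difference from UVM11, named after the values were seen, was that of Cre06.g288600 with 3.41 ± 0.07 FPKM in UVM4, 0.340 FPKM in UVM11 and 0.656 ± 0.079 FPKM in Elow47 (a UVM4 minus UVM11 difference of 3 on the log2 scale, adjusted p = 7.21e-12).

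Cultures of batch 2, which entered the difference between UVM4 and Elow47 only through the filter and the shared variance, show the same genes in UVM11 and its complemented strains. UVM11-C1 and UVM11-C9 are independent transformants of UVM11 that carry a tagged SRTA wild-type allele and a hygromycin resistance gene. The allele, the resistance gene and the clone cannot be told apart in these comparisons. In UVM11-C1 against UVM11, 33 of the 152 genes were lower and 6 higher, against 0.908% lower and 0.331% higher among all tested genes, and the median log2 fold change of the 152 genes was -0.20 against 0.00. In UVM11-C9, 34 of the 152 were lower and 18 higher, against 2.18% and 1.4% of all tested genes, with a median of -0.15 against -0.01. The 18 genes selected by the study are all among those lower in both strains, partly on these same cultures. Without them, 15 of 134 genes (11.2%) were lower and 6 higher in UVM11-C1, and 16 (11.9%) were lower and 18 (13.4%) higher in UVM11-C9, with medians of -0.12 and -0.09. As the 18 genes were selected for being lower after complementation, leaving them out reduces the share of lower genes by design. Both comparisons share the UVM11 cultures of batch 2. Of the 152 genes, 86 were a DEG in neither of them, and the corresponding share of all tested genes was not computed. Among the 158 genes called without Elow47 culture 3, 34 were lower and 7 higher in UVM11-C1, 34 lower and 18 higher in UVM11-C9, and 91 a DEG in neither. Cre02.g141166 had 65.8 ± 6.1 FPKM in UVM11-C1, 14.6 ± 0.4 FPKM in UVM11-C9 and 14 ± 1.7 FPKM in UVM11 (SD, n = 3 each), compared with 16.8 FPKM in UVM4 and 0.140 FPKM in Elow47 of batch 1. Cre16.g681200 had 57.4 ± 8.0, 60.8 ± 2.2 and 60.5 ± 10.6 FPKM in UVM11-C1, UVM11-C9 and UVM11. Neither gene was a lower DEG in the complemented strains against UVM11. Cre11.g474650 was at 0 in all cultures of UVM11-C1 and UVM11-C9. It averaged 1.29 ± 0.28 FPKM in UVM11 of batch 2 and 0.903 FPKM in UVM11 of batch 1.

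Of the 20 lower DEGs, 1 was higher and 4 lower in UVM11-C1 than in UVM11, against 0.331% and 0.908% of all tested genes. In UVM11-C9, 0 were higher and 2 lower, against 1.4% and 2.18% of all tested genes. Among the 22 called without Elow47 culture 3, 1 was higher in UVM11-C9 and the other counts were equal. Cre12.g546550 had 135 ± 3 FPKM in UVM11-C1, 103 ± 21 FPKM in UVM11-C9 and 544 ± 171 FPKM in UVM11 (SD, n = 3 each). In batch 1 it had 894 FPKM in UVM4, 1801 FPKM in Elow47 and 1486.5 ± 85.0 FPKM in UVM11 (SD, n = 4). There, UVM11 was no DEG against Elow47 (log2 fold change -0.27, adjusted p = 0.332 in limma), so the level of UVM11 itself was lower in batch 2. Levels between batches were not tested. Cre03.g210401 was low in all strains other than Elow47, with 1.67 FPKM in UVM11-C1, 0.978 FPKM in UVM11-C9, 1.5 FPKM in UVM11 of batch 2, 1.03 FPKM in UVM11 of batch 1 and 1.13 FPKM in UVM4, against 17 FPKM in Elow47.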

How the data were processed

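RNA of 21 cultures was sequenced by the authors, who mapped reads to genome version 5 by RNA-STAR (2.4.0j) and deposited 1 FPKM value per gene and culture, computed with cuffdiff 2.2.1. The sources differ on the library kit, so that it is not known whether strand was used; overlapping or antisense genes and near-identical copies cannot be told apart. The authors' columns were assigned by their labels. limma (version 3.58.1, R version 4.3.3) was run on log2(FPKM + 0.1) with 6 groups of strain and batch (15 residual degrees of freedom, variance trend), for genes with a mean above 0.1 FPKM. All tests are two-sided with Benjamini-Hochberg adjustment over 15425 genes. On simulated data for this comparison (15425 genes), 96.2%, 98.8% and 100% of changes of 1.5, 2 and 3 (log2) were called, with 0 false calls. The simulation changed genes drawn at random and used normal noise on the log2 scale, so these rates may not hold for DEGs near 0 FPKM. The precision is given as the spread between cultures, which were separate cultures per the labels. Positions come from the RefSeq gene table of the same assembly, which matched 17738 genes. This table holds no gene names, so 26 lists set up by symbol were not used here. Genes were named by rule: the histone deacetylases, the 12 higher and 8 lower DEGs of largest fold change with separated groups, the 6 and 4 of largest FPKM difference, and DEGs in lists of the study. Members and lists were chosen with earlier results of these data known. Tables used Python 3.11.15, numpy 2.4.6, pandas 2.3.3 and scipy 1.17.1.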

Additional observations from a re-analysis of the deposited data

Results flagged for a closer look

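Of the 90 sets of 4 cultures examined (the named DEGs and SRTA in both strains), 7 held a culture far from the other 3, where chance gives about 1 in 20. All were Elow47 sets: culture 2 was highest in Cre08.g365900 (1.78 FPKM), Cre02.g100700 (0.0142 FPKM) and Cre17.g729101 (0.161 FPKM), culture 3 was highest in Cre12.g551600 (2.18 FPKM), and the lowest cultures were culture 4 in Cre12.g532151 (0.0272 FPKM), culture 1 in Cre10.g425850 (6.42 FPKM) and culture 2 in Cre14.g630000 (0.419 FPKM).

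Among the 44 DEGs named by rule, the change in UVM4 differed from that in UVM11 by the test of UVM4 minus UVM11 in 14 genes. Over all 152 higher DEGs, 30 were above and 11 below UVM11. UVM4 was above UVM11, in log2, in Cre09.g399812 (1.04), Cre08.g365900 (1.77), Cre02.g100700 (2.48), Cre13.g606300 (1.96), Cre03.g176150 (1.14), Cre10.g425850 (2.26) and Cre17.g729101 (1.38). It was below UVM11 in Cre16.g681200 (-2.41), Cre08.g368650 (-2.13), Cre06.g302305 (-2.55), Cre16.g656750 (-1.91), Cre07.g326626 (-6.00), Cre09.g386742 (-4.88) and Cre16.g667550 (-1.55). Cre09.g386742 averaged 0.509 FPKM in UVM4, 17.8 FPKM in UVM11 of batch 1 and 0.572 FPKM in UVM11 of batch 2.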

How the results depend on the processing

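The total of 172 DEGs (152 higher, 20 lower) was 57 (49 and 8) with a pseudocount of 1, 86 (72 and 14) with a filter at a mean of 1 FPKM, and 78 (73 and 5) with limma treat against 1. The other settings gave 155 to 202 DEGs: a pseudocount of 0.01, no filter, quantile normalization, median-ratio scaling, an adjusted p below 0.05, models of 2 or 3 groups, no variance trend and the replicate block. Leaving out 1 culture gave 160 to 180 DEGs in total, 142 to 158 higher and 18 to 24 lower, and between -0.09 and 0.10 for SRTA, whose sign turned without UVM4 culture 4 (-0.02) and without Elow47 culture 1 (-0.0896). The replicate numbers did not pair the cultures: same-numbered cultures deviated with correlations of 0.262, -0.0889, -0.166 and 0.103, and the fit with the replicate block gave 169 DEGs (148 higher, 21 lower) and 0.03 for SRTA. Of the 44 named DEGs, 0 changed sign in any setting. With a pseudocount of 1 18 of them were no longer called, and with limma treat 19, while 13 were not tested with the filter at 1 FPKM. Depth limits the genes below about 0.1 FPKM, where single fragments set the value. Some alternatives were chosen after seeing the data: the other counts of the report without Elow47 culture 3, and a minimum of 0.001 FPKM for genes above 0 in UVM4 and at 0 in Elow47 (50 in place of 51). Without Elow47 culture 3, the genes named with a sequence difference included 6 higher DEGs in place of 3, and those with a changed protein 2 in place of 1.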
